A study of Mus musculus with 6 samples.

Results

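The genes of MHC class II antigen presentation were followed in liver RNA of KRAP-/- mice, in which the gene of Ki-ras-induced actin-interacting protein is disrupted. The 9 genes were H2-Aa, H2-Ab1, H2-Eb1, H2-DMa, H2-DMb1, Cd74, Ciita, Ctss and Cd86, and every probe set annotated to exactly 1 of them was taken. This gave 17 of the 45037 probe sets of the array, for 8 of the 9 genes. H2-DMb1 had no probe set of its own, because both probe sets that list it also list H2-DMb2. Of the 17 probe sets, 15 reached the minimum mean signal for the test and entered the fit of 28531 probe sets. All 15 had a mean above that minimum in each genotype. The remaining 2, both of Ciita, are given by their values alone.

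The livers came from 3 KRAP-/- mice (KO1, KO2 and KO3) and their 3 wild-type littermates (WT1, WT2 and WT3), all 32 weeks old and fed normal chow, with 1 Affymetrix mouse genome array per mouse. In the KRAP-/- mice a stretch of the coding exons was replaced by a neomycin resistance cassette in every cell of the body, in a line made in ES cells and crossed onto C57BL6/J. The wild-type mice carried no modified allele. The RNA was of whole liver, so fewer cells of a type and less RNA per cell cannot be told apart. Signals are given in units of the median signal of each array, and the difference between genotypes is the log2 ratio of KRAP-/- over wild-type liver with its standard error (SE).

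MHC class II molecules are pairs of an alpha and a beta chain that carry peptides from endocytosed proteins to the cell surface, where CD4+ T cells read them. The invariant chain guards the groove until cathepsin S trims it, and the H2-DM heterodimer then exchanges the last fragment for a peptide. Class II genes are switched on through Ciita, a coactivator without DNA binding of its own, which docks on the factors RFX, CREB and NF-Y at the X and Y boxes of class II promoters and which interferon gamma induces. In liver the class II molecules are known from Kupffer cells, dendritic cells and B cells, among other cells, rather than from hepatocytes.

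The promoters below are shown because they carry the boxes through which class II genes are jointly controlled, or, for Ctss, an interferon response core. The RefSeq promoter table (GRCm38.p6) held 5 of the 9 genes, namely H2-Aa, H2-Eb1, H2-DMa, H2-DMb1 and Ctss. Each sequence is the last 110 bases before the annotated start of the gene, read 5′ to 3′ on the strand of the gene, with the motif letters in capitals. They lie at chr17:34287824-34287933 (minus strand, H2-Aa), chr17:34305757-34305866 (plus strand, H2-Eb1) and chr3:95526676-95526785 (plus strand, Ctss).
H2-Aa: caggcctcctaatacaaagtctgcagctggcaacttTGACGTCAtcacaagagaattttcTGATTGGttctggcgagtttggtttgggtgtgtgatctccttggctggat
H2-Eb1: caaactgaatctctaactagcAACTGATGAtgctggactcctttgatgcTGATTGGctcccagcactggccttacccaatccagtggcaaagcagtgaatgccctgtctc
Ctss: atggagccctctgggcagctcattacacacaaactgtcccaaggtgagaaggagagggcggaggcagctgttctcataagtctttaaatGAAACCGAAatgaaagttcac

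The letters were chosen after the sequences had been seen, were searched on both strands over the 250 bases before and 50 after each start, and are a description only. The Y box core TGATTGG, the site of NF-Y, began 50 bases before the start of H2-Aa and 61 before that of H2-Eb1. It was present in 7.82% of the 32851 promoters of the table. The X box core AACTGATGA, a site of RFX, began 89 bases before the start of H2-Eb1 and was present in 0.253% of promoters. The X2 box core TGACGTCA, a site of CREB, began 74 bases before the start of H2-Aa and was present in 1.79%. H2-DMb1 held the same X box and Y box letters, 92 and 63 bases before its start. The interferon response core GAAANNGAA began 21 bases before the start of Ctss and was present in 8.56% of promoters. No capitals overlapped each other. None of these letters was found in the 2 promoter windows listed for H2-DMa, which says only that they are not in these windows.

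None of the 15 fitted probe sets passed the test in either direction. At an adjusted p under 0.05 from limma, fitted with littermate pairs as blocks and adjusted by Benjamini-Hochberg over all fitted probe sets, 0 of 15 were lower (0.978% of all fitted probe sets) and 0 of 15 higher (0.431%) in KRAP-/- liver. At an unadjusted p under 0.05, 4 of 15 were lower (9.30% of all) and 0 higher (5.58%). The 4 belonged to H2-Aa, H2-Ab1, Cd74 and Ctss. At the brightest probe set of each gene, 0 of 8 genes were lower (1.31% of 13217 genes) and 0 higher (0.333%), with 2 of 8 lower (11.8%) and 0 higher (3.93%) at an unadjusted p under 0.05. The methods of the study name a 1.5-fold change in each of the 3 pairs as a filter. Applied here to all probe sets, dim ones included, which may not be the study's whole filter, a change of at least 1.5-fold in every pair was reached by 0 of 17 probe sets downwards (2.88% of all probe sets) and 0 of 17 upwards (2.30%).

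Most estimates nonetheless lay below 0. The log2 ratio was negative for 13 of 15 probe sets, against 55.2% of all fitted probe sets, and its median was −0.23 against −0.04 over all of them. KRAP-/- liver had the lower signal in all 3 pairs at 6 of 15 probe sets (22.4% of all), and all 3 KRAP-/- livers lay below all 3 wild-type livers at 2 of 15 (12.3% of all). Over the 8 genes at their brightest probe sets, the median was −0.22 against −0.08 over all genes, and −0.15 without pair 2. Probe sets of 1 gene share their transcripts and do not count as separate genes.

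**Figure D1:**
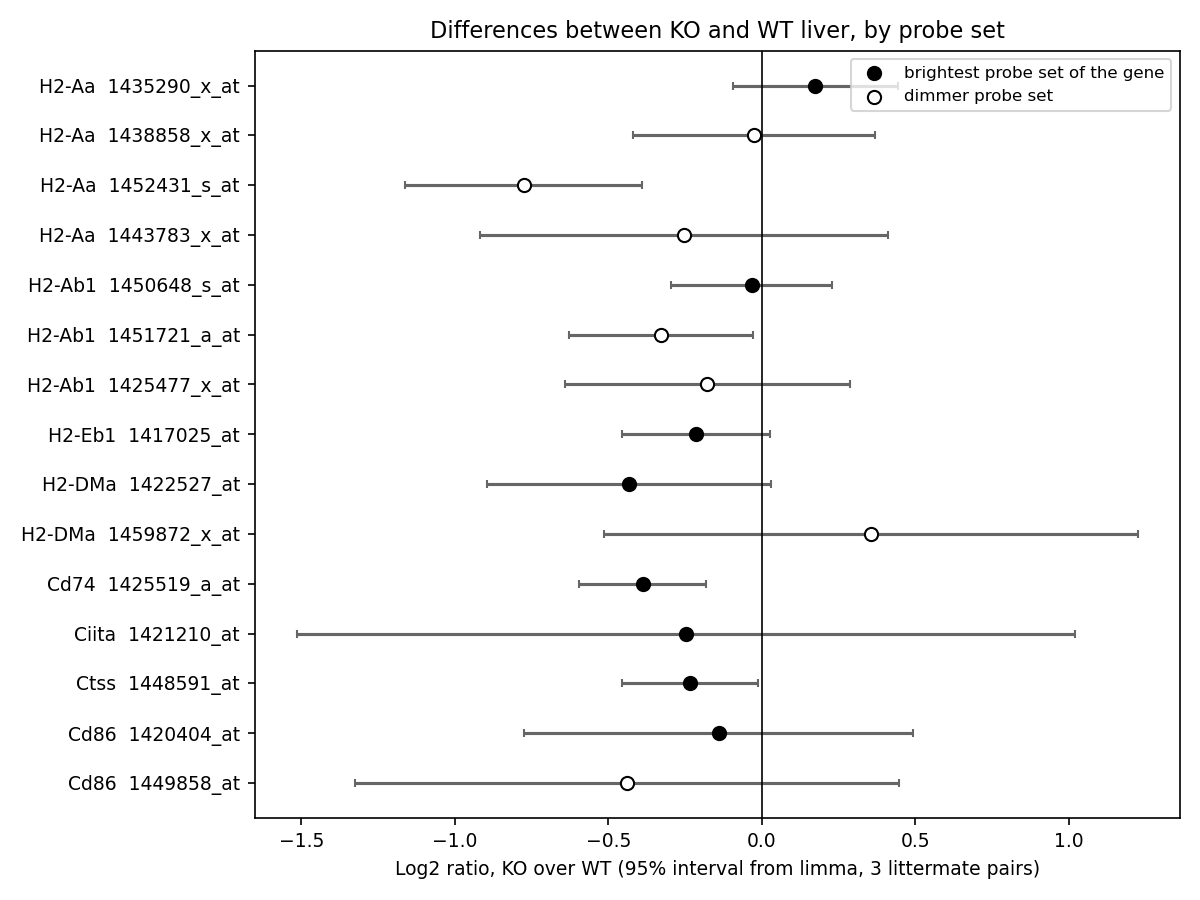
Log2 ratio of KRAP-/- over wild-type liver for the 15 fitted probe sets, with 95% intervals from limma over 3 littermate pairs, filled at the brightest probe set of each gene. The estimates lie between −0.78 for an H2-Aa probe set and 0.36 for an H2-DMa probe set, and none passed the test after adjustment.

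Cd74, the invariant chain that guards the peptide groove of new class II molecules, had similar ratios in all 3 pairs. Its only probe set (1425519_a_at; gene at chr18:60803849-60812652, GRCm38.p6) read 21.1, 24.7 and 19.1 in KO1, KO2 and KO3, against 28.3, 33.2 and 23.8 in WT1, WT2 and WT3. The KRAP-/- liver was lower than its littermate in every pair, with ratios of 0.747, 0.744 and 0.803, but the groups overlapped because KO2 lay above WT3. The mean was 21.6 ± 2.84 in the KRAP-/- group and 28.4 ± 4.71 among wild-type mice (SD, n = 3 each). Its log2 ratio was −0.39 (SE 0.09, 95% interval −0.60 to −0.18), with an adjusted p of 0.0876 from limma. It was −0.37, −0.37 and −0.42 without pairs 1, 2 and 3, and the adjusted p lay between 0.0757 and 0.436 over 12 alternative settings.

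H2-Aa, the alpha chain of the I-A molecule (chr17:34282744-34287823), had 4 probe sets, and they did not move together. The brightest, 1435290_x_at, read 48.9, 39.1 and 43.3 in KO1, KO2 and KO3, against 38.2, 44.4 and 33.9 in WT1, WT2 and WT3. KO1 and KO3 lay above their littermates and KO2 below, and the groups overlapped. This gave a log2 ratio of 0.17 (SE 0.12, 95% interval −0.09 to 0.44, adjusted p = 0.533 from limma), with 0.08, 0.35 and 0.09 without pairs 1, 2 and 3. The probe set 1452431_s_at read 3.04, 4.09 and 4.05 in the KRAP-/- livers, against 5.97, 8.16 and 5.18 in the wild-type livers. Here all 3 KRAP-/- livers lay below all 3 wild-type livers, with ratios of 0.509, 0.502 and 0.782. Here the log2 ratio was −0.78 (SE 0.17, 95% interval −1.16 to −0.39) with an adjusted p of 0.0697. Without pair 3 it was −0.99 with an adjusted p of 0.0119, the only setting in which a class II probe set passed, and over 11 alternative settings the adjusted p lay between 0.0119 and 0.428. The 95% intervals of these 2 probe sets do not overlap, and the difference between them was not tested.

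The other H2-Aa probe sets lay between these. On 1438858_x_at the KRAP-/- livers read 11.9, 8.69 and 6.36 and the wild-type livers 8.44, 9.39 and 8.77, a log2 ratio of −0.03 (adjusted p = 0.962) that ran from −0.29 without pair 1 to 0.19 without pair 3. On 1443783_x_at they read 1.52, 0.889 and 1.37 in KRAP-/- liver and 1.57, 1.5 and 1.34 in wild-type liver, a log2 ratio of −0.25 (adjusted p = 0.736) that was −0.36, −0.01 and −0.40 without pairs 1, 2 and 3. The KRAP-/- values enclosed the wild-type values on the first, and the groups overlapped on the second. In the naming of these arrays, an ending of _x_at or _s_at marks probes that can bind further transcripts, and all 4 H2-Aa probe sets carry such an ending.

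H2-Ab1, the beta chain that pairs with H2-Aa (chr17:34263227-34269418), read 11.0, 14.5 and 10.7 in KO1, KO2 and KO3 and 11.2, 13.1 and 12.4 in WT1, WT2 and WT3 on its brightest probe set, 1450648_s_at. The groups overlapped, KO2 being the highest of the 6 livers and KO3 the lowest. Its log2 ratio was −0.03 (SE 0.12), and the 95% interval of −0.29 to 0.23 shows how large a difference these arrays leave room for. It was −0.03, −0.12 and 0.06 without pairs 1, 2 and 3. On 1451721_a_at the KRAP-/- livers read 4.96, 5.91 and 4.57 and the wild-type livers 6.08, 7.72 and 5.64. Each KRAP-/- liver was below its littermate, while KO2 lay above WT3. Here the log2 ratio was −0.33 (SE 0.13, unadjusted p = 0.0344, adjusted p = 0.293). The third probe set, 1425477_x_at, read 2.66, 2.71 and 3.26 in KRAP-/- liver and 3.74, 3.46 and 2.62 in wild-type liver (log2 ratio −0.18, adjusted p = 0.736), with pair 3 opposite to the other two. It was −0.02, −0.09 and −0.42 without pairs 1, 2 and 3.

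H2-Eb1, the beta chain of the I-E molecule (chr17:34305867-34316674), read 13.0, 14.7 and 13.7 in KO1, KO2 and KO3, against 15.7, 18.3 and 14.3 in WT1, WT2 and WT3 on 1417025_at. Each KRAP-/- liver was below its littermate, and WT2 was the highest of all. Its log2 ratio was −0.22 (SE 0.11, 95% interval −0.46 to 0.03, adjusted p = 0.391). In C57BL mice the alpha chain gene of I-E, H2-Ea, is known to be defective, and here its probe sets were under the minimum signal.

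H2-DMa, a chain of the H2-DM peptide editor (chr17:34119693-34139101), read 2.36, 2.68 and 2.53 in KO1, KO2 and KO3, against 2.67, 5.03 and 2.92 in WT1, WT2 and WT3 on its brighter probe set, 1422527_at. The wild-type mean was set largely by WT2, which stood well above the other 5 livers. The log2 ratio of −0.43 (SE 0.21, adjusted p = 0.370) became −0.19 without pair 2. The dimmer probe set, 1459872_x_at, read 1.15, 0.837 and 1.23 in KRAP-/- liver and 0.934, 0.438 and 1.38 in wild-type liver, with a log2 ratio of 0.36 (SE 0.39, adjusted p = 0.715) that was 0.38, 0.07 and 0.61 without pairs 1, 2 and 3.

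Ctss, the cathepsin that trims the invariant chain in antigen-presenting cells, read 36.0, 36.5 and 37.4 in KO1, KO2 and KO3, against 40.1, 49.6 and 40.1 in WT1, WT2 and WT3 on 1448591_at (gene at chr3:95526786-95556405). All 3 KRAP-/- livers lay below all 3 wild-type livers, and WT2 was again the highest. The log2 ratio was −0.23 (SE 0.10, 95% interval −0.45 to −0.01, unadjusted p = 0.0407, adjusted p = 0.311), and −0.13 without pair 2.

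**Figure D2:**
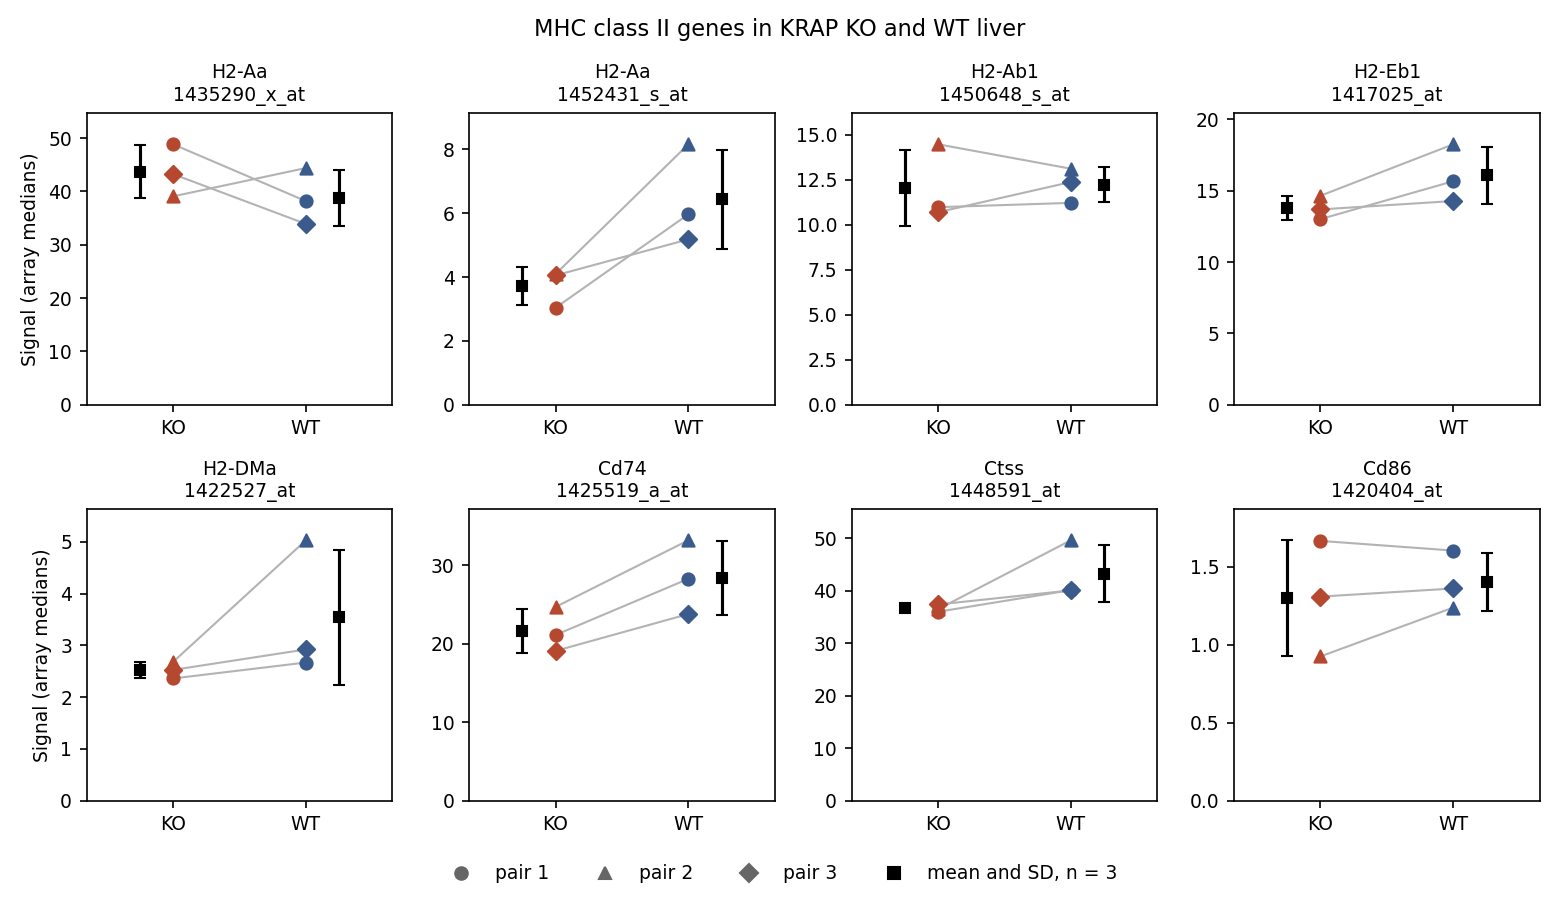
Signal in units of the array median in the 3 KRAP-/- (left) and 3 wild-type livers (right) at 8 probe sets of 7 genes, with grey lines joining littermates and squares with bars for mean and SD (n = 3). Cd74 is lower in KRAP-/- liver in every pair, the 2 H2-Aa probe sets differ from each other, and WT2 (triangle) reaches 5.03 at H2-DMa and 49.6 at Ctss.

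Ciita, the coactivator of the class II promoters (chr16:10480014-10531064), was near the lower limit of the arrays. Its brightest probe set, 1421210_at, read 0.314, 0.653 and 0.952 in KO1, KO2 and KO3 and 0.821, 0.534 and 0.745 in WT1, WT2 and WT3. The KRAP-/- values enclosed the wild-type values. With 3 pairs the log2 ratio was −0.25 with a SE of 0.56 (adjusted p = 0.877), and it was 0.32, −0.52 and −0.55 without pairs 1, 2 and 3. The 2 unfitted probe sets spanned 0.0387 to 0.492 in KRAP-/- liver and 0.0148 to 0.515 in wild-type liver (1447075_at), and 0.0468 to 0.316 in KRAP-/- liver and 0.0731 to 0.432 in wild-type liver (1421211_a_at). The 95% interval of the fitted Ciita probe set, −1.52 to 1.02, was the widest of the 15 probe sets.

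Cd86, a co-stimulatory ligand that antigen-presenting cells show to CD28 on T cells (chr16:36568956-36666158), read 1.67, 0.925 and 1.31 in KO1, KO2 and KO3 and 1.60, 1.24 and 1.36 in WT1, WT2 and WT3 on 1420404_at. The groups overlapped, with a log2 ratio of −0.14 (SE 0.28, adjusted p = 0.856) that was −0.24 without pair 1 and −0.0008 without pair 2. On 1449858_at the values were 0.761, 0.733 and 1.27 in KRAP-/- liver and 1.08, 1.69 and 0.963 in wild-type liver. The log2 ratio there was −0.44 (SE 0.39, adjusted p = 0.648), with −0.41, −0.05 and −0.85 without pairs 1, 2 and 3.

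The liver WT2 recurred as the highest of the 6. It held the highest signal at 7 of the 15 fitted probe sets, against 15.1% of all fitted probe sets. Over the 8 genes at their brightest probe sets, the median ratio of KRAP-/- to wild-type was 0.891, 0.775 and 0.946 in pairs 1, 2 and 3, against 0.953, 0.958 and 0.942 over all genes. The median deposited intensity was 20.2 to 23.4 on the KRAP-/- arrays and 19.1 to 22.6 on the wild-type arrays, with WT2 at 21.3. The 3′ over 5′ control signal, which rises when RNA is degraded, was 2.28 to 2.32 on the KRAP-/- arrays and 2.01 to 2.65 on the wild-type arrays for Actb, with WT2 lowest at 2.01 and WT3 next at 2.05. For Gapdh it was 0.709 to 0.795 on the KRAP-/- arrays and 0.729 to 0.778 on the wild-type arrays, with WT2 inside this range at 0.741. The part of RNA quality in the class II values was not tested. The probe set of the deleted gene (Itprid2) is not placed inside or outside the deleted exons by the sources used here, so it checks no label. It read 20.0 to 21.6 in KRAP-/- liver and 22.3 to 24.5 in wild-type liver, with a log2 ratio of −0.17 (SE 0.09) that did not pass (adjusted p = 0.442 from limma).

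Lists of genes around the pathway were set beside the 9 genes, at the brightest probe set of each gene, and 1 of their 60 fitted genes was lower after limma's adjustment (1.31% of all genes) and 0 higher (0.333%). The shares of all genes at an unadjusted p under 0.05 were 11.8% lower and 3.93% higher, and the counts of the lists stand beside these. Medians are followed by their range when each pair was left out in turn, an alternative chosen after seeing the data. Of 5 further class II chains and editors, 3 were fitted, with 0 lower and 0 higher after adjustment and 0 at an unadjusted p under 0.05, and a median log2 ratio of −0.54 (−0.56 to −0.18, nearest 0 without pair 1). Of 8 genes of antigen processing, 0 passed, 3 were lower and 0 higher at an unadjusted p under 0.05 (0 lower without pair 2), and the median was −0.16 (−0.19 to −0.13). The log2 ratio was below 0 at 5 of the 8 and above 0 at 3, namely Ctsh (0.10), Ctsl (0.15) and Sppl2a (0.05). Lgmn, an endosomal protease also called legumain, read 11.0, 12.4 and 12.6 in KRAP-/- liver against 16.8, 18.0 and 12.9 in wild-type liver (log2 ratio −0.39, adjusted p = 0.215 from limma). The adjusted p of Lgmn was 0.548, 0.464 and 0.0364 without pairs 1, 2 and 3, with log2 ratios of −0.29, −0.32 and −0.58. Of 5 genes of co-stimulation and surface turnover, 0 passed, 0 did so before adjustment, and the median was −0.63 (−0.64 to −0.19, nearest 0 without pair 2). This list was dim, its 5 genes summing to 3.08 to 4.44 in KRAP-/- liver and 4.83 to 5.54 in wild-type liver. So were the 5 further chains and editors, at 3.12 to 3.84 in KRAP-/- liver and 3.62 to 4.72 in wild-type liver. The medians of both lists are uncertain for this reason. In each of these lists, 1 gene was lower before adjustment without pair 3.

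The factors that control class II genes moved in no common direction. Of the 7 subunits of the complex on the X and Y boxes, 0 passed, 1 was lower and 1 higher at an unadjusted p under 0.05, and the median was −0.03 (−0.11 without pair 1 to 0.06 without pair 3). The log2 ratio was below 0 at 4 of the 7 and above 0 at 3. The lower one was Rfxank, an RFX subunit needed for class II expression, with 2.43, 3.84 and 3.07 in KRAP-/- liver against 6.14, 5.01 and 5.42 in wild-type liver. All 3 KRAP-/- values lay below all 3 wild-type values, as they did at 12.3% of all fitted probe sets, and 0 of the 3 probe sets of Rfxank passed. Its log2 ratio was −0.85 (SE 0.20, adjusted p = 0.0829) on an _s_at probe set, and it was −0.60, −1.08 and −0.86 without pairs 1, 2 and 3, with adjusted p of 0.244, 0.00815 and 0.0854. Over the alternative settings that held this probe set, its adjusted p reached 0.439. The higher one was Nfyb, a subunit of NF-Y, with 13.2, 15.7 and 12.1 in KRAP-/- liver against 10.1, 10.7 and 11.7 in wild-type liver. Its log2 ratio was 0.33 (SE 0.13, adjusted p = 0.271 from limma), and 0.30, 0.22 and 0.46 without pairs 1, 2 and 3. Of 9 genes of interferon gamma signalling, 7 were fitted, 0 passed, 1 was lower at an unadjusted p under 0.05, and the median was −0.08 (−0.23 without pair 1 to 0.01 without pair 3). This was Irf1, a transcription factor induced by interferon gamma, with 13.7, 14.5 and 12.2 in KRAP-/- liver against 17.9, 19.3 and 17.2 in wild-type liver. All 3 KRAP-/- values lay below all 3 wild-type values (12.3% of all fitted probe sets), and the log2 ratio was −0.43 (SE 0.10, adjusted p = 0.0844 from limma). The adjusted p of Irf1 was 0.188, 0.183 and 0.133 without pairs 1, 2 and 3, and reached 0.432 over the alternative settings. Of the 7 fitted genes, 5 lay below 0 and 2 above, Ifngr1 (0.28) and Ifngr2 (0.09). Without pair 3, 2 of the 7 were lower before adjustment. Lgmn, Rfxank, Irf1 and the genes beside them lie outside the threshold by which genes were named and were chosen after their values were seen. The same holds for Marco, Timd4, Ptprc, Cd79a, Nkg7 and Xcr1 among the markers that follow.

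**Figure D3:**
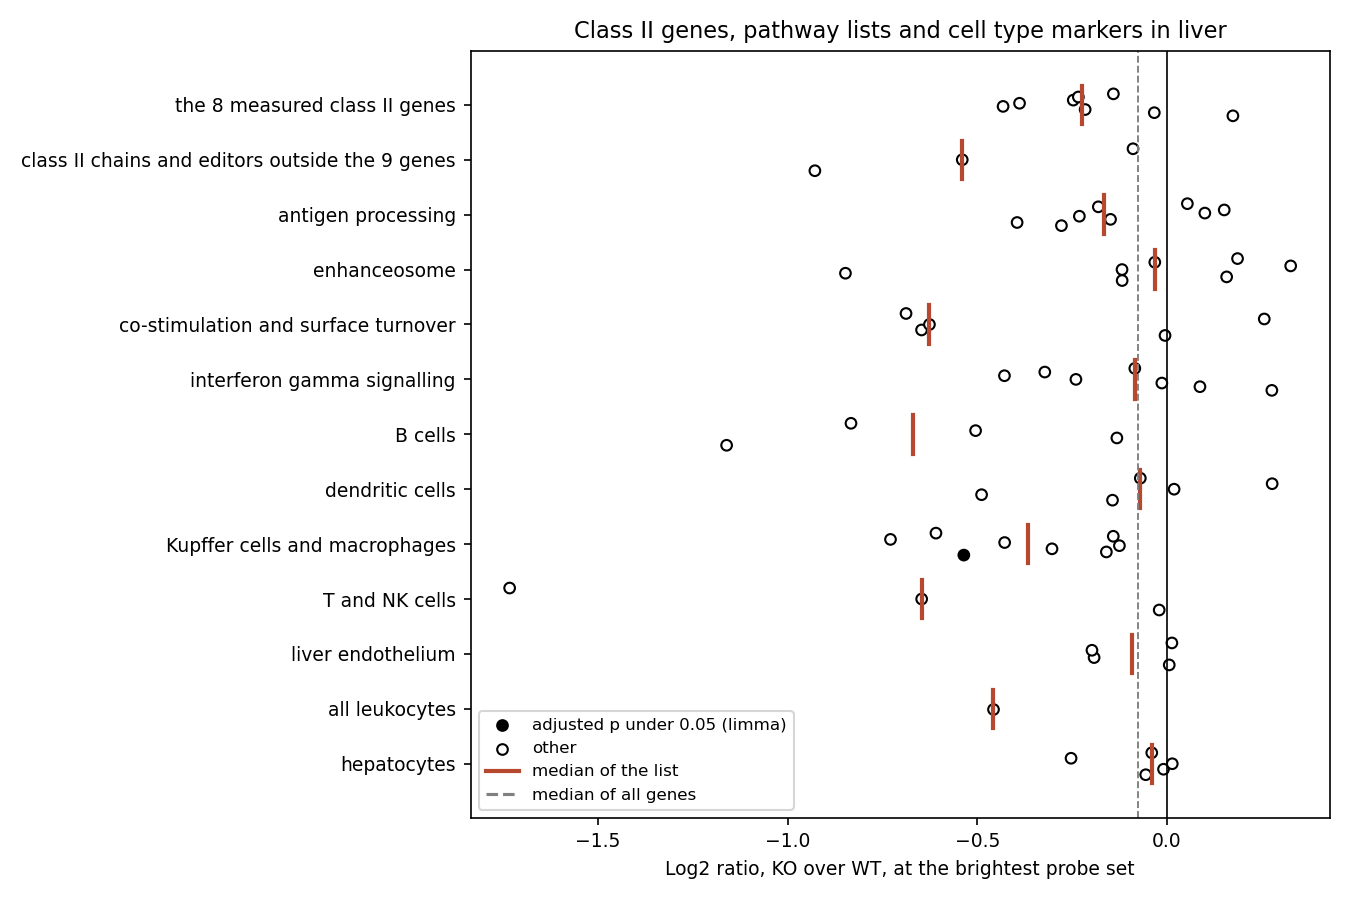
Log2 ratio of KRAP-/- over wild-type liver at the brightest probe set of each fitted gene (points), for the class II genes, the pathway lists and the marker lists of cell types, with a line at each list's median. Clec4f at −0.54 in the Kupffer cell list is the only filled point (adjusted p under 0.05 from limma), and the dashed line marks the median of all genes at −0.08.

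Markers of the cell types in liver were set beside these values. All 8 markers of Kupffer cells and macrophages had a log2 ratio below 0, with a median of −0.37. The median over all genes also lay below 0, at −0.08. Without pair 2, 7 of 8 lay below 0, Timd4 being at 0.22, and the median was −0.16, against −0.43 and −0.48 without pairs 1 and 3. Their summed signal was 176 to 187 in KRAP-/- liver and 205 to 240 in wild-type liver. After adjustment 1 of 8 was lower (1.31% of all genes) and 0 higher, and 4 of 8 were lower at an unadjusted p under 0.05 (11.8% of all genes), a count of 6, 1 and 4 without pairs 1, 2 and 3. The 1 was Clec4f, a lectin of Kupffer cells, with 22.5, 24.0 and 22.9 in KO1, KO2 and KO3 against 31.6, 34.8 and 34.1 in WT1, WT2 and WT3. Clec4f was lower by 0.54 on the log2 scale (SE 0.09, adjusted p = 0.0255 from limma). All 3 KRAP-/- values lay below all 3 wild-type values, as they did at 12.3% of all fitted probe sets. The call was lost with signals as deposited (adjusted p = 0.0706), with no limit on dim probe sets (0.383) and with no intensity trend (0.422), and was kept without any 1 pair (0.0353, 0.0448 and 0.0325). The scavenger receptor Marco had a log2 ratio of −0.73 (adjusted p = 0.404). Marco was at −1.39 without pair 1 (adjusted p = 0.00477) and at −0.17 without pair 2 (adjusted p = 0.895).

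WT2 was the highest liver at all 8 Kupffer cell and macrophage markers and at 7 of the 15 class II probe sets. The share over all fitted probe sets was 15.1%. WT2 was also highest at 3 of 4 fitted genes for B cells, 2 of 3 for T and NK cells and 2 of 4 for endothelium. The count was 4 of 8 for antigen processing, 3 of 7 for interferon gamma signalling and 2 of 5 for co-stimulation. It was 1 of 3 for further chains and editors, 1 of 5 for dendritic cells, 1 of 5 for hepatocytes and 0 of 7 for the box-binding subunits. Ptprc, the CD45 antigen of all leukocytes, read 6.59 to 7.12 in KRAP-/- liver and 8.64 to 10.9 in wild-type liver, again highest in WT2, with a log2 ratio of −0.46 (unadjusted p = 0.00668, adjusted p = 0.148) and −0.34 without pair 2. The part of leukocyte content in the class II values was not tested.

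The other marker lists had 0 genes past the threshold after limma's adjustment. For B cells, 4 of 5 markers were fitted, 1 was lower at an unadjusted p under 0.05 (0 without pair 2), the median was −0.67 (−0.83 to −0.25, nearest 0 without pair 2), and the summed signal was 4.09 to 5.64 in KRAP-/- liver and 6.16 to 8.35 in wild-type liver. For dendritic cells, 5 of 7 were fitted, 0 were lower before adjustment, the median was −0.07 (−0.22 without pair 1 to 0.01 without pair 3), and the sums overlapped at 5.92 to 6.86 in KRAP-/- liver and 5.78 to 7.66 in wild-type liver, with Xcr1 near 0 at 0.0290 to 0.183 in KRAP-/- liver and 0.0802 to 0.273 in wild-type liver. For T and NK cells, 3 of 5 were fitted, 1 was lower before adjustment, the median was −0.65 (−0.84 to −0.44), and the sums were 2.21 to 2.98 in KRAP-/- liver and 3.51 to 4.23 in wild-type liver. The B cell, T cell and NK cell markers were dim, so their medians are uncertain. Nkg7 read 0.111 in KO3 and Cd79a 0.125 in KO2, close to the floor of 0.1. The 4 markers of liver endothelium had a median of −0.09 (−0.11 to −0.01, nearest 0 without pair 2), with 0 lower before adjustment and sums of 70.1 to 70.9 in KRAP-/- liver and 74.0 to 83.3 in wild-type liver. The 5 fitted hepatocyte markers stand for the labelled tissue. They summed to 2846 to 3252 in KRAP-/- liver and 3024 to 3183 in wild-type liver. Their median was −0.04 (−0.09 without pair 1 to 0.06 without pair 3), with 0 lower before adjustment. Leaving out a pair moved several counts of genes lower before adjustment. The count was 2 for B cells without pair 1 and 0 for T and NK cells without pair 3. For endothelium it was 1 without pair 3, and for hepatocytes 1 without pair 1 and 1 without pair 3.

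**Figure D4:**
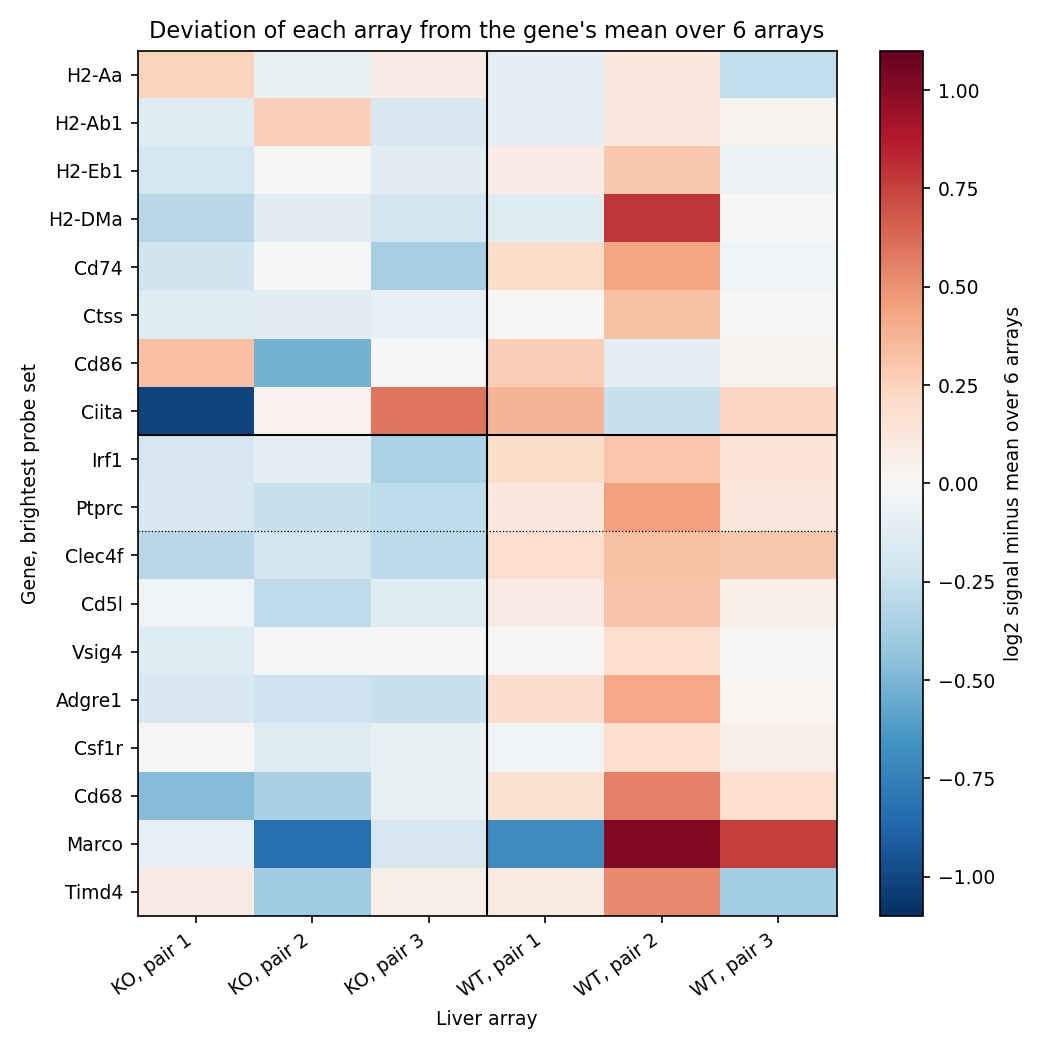
Log2 signal of each liver minus the gene's mean over the 6 livers, for the 8 measured class II genes (top), Irf1 and Ptprc (middle) and the 8 markers of Kupffer cells and macrophages (bottom), with KRAP-/- livers left of the line. WT2 is the reddest column for all 8 macrophage markers and for H2-Eb1, H2-DMa, Cd74 and Ctss.

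The class II genes did not all share 1 pattern over the 6 livers. At their brightest probe sets, H2-Eb1, H2-DMa, Cd74 and Ctss were each highest in WT2 and lower in KRAP-/- liver in all 3 pairs. Neither held for H2-Aa, H2-Ab1, Ciita and Cd86. The correlations that follow are with H2-Ab1 alone, whose 3 probe sets were highest in different livers, and the other genes were not correlated with each other. With H2-Ab1 at its brightest probe set, the correlation of log2 signals over 6 arrays was 0.51 for Cd74, 0.46 for H2-DMa, 0.46 for H2-Eb1, 0.27 for Ctss, −0.03 for Ciita, −0.33 for its partner chain H2-Aa and −0.84 for Cd86. The genes outside the 9 with the closest pattern, of 13209, were Gna11, Porcn, Senp7, Ggh and Mybl2, with correlations of 0.96 to 0.99. All points come from the same 6 arrays and share their scaling, and the values are descriptions without a test.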

How the data were processed

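An array per mouse was hybridized with liver RNA, for 3 KRAP-/- mice and their 3 wild-type littermates. The authors deposited linear signal intensity values from GCOS (per the labels; its version is not given in the sources used here), 1 value per probe set, before the scaling to the 50th percentile named in the methods. Each intensity was divided by its array's median, 64 control probe sets were left out, values were floored at 0.1 and taken as log2. limma 3.58.1 under R 4.3.3 was run on probe sets whose mean reached 0.5, using littermate pairs as blocks, an intensity trend and Benjamini-Hochberg adjustment over all 28531 fitted probe sets, with a threshold of 0.05. The floor and the minimum can alter values of dim probe sets, and the number of arrays limits the precision. The fit was tested on simulated data, with changes placed only in probe sets brighter than 1 array median. It recovered 26 of 50 changes of 1.5-fold and 39 of 50 of 2-fold, with 8 false calls over 28531 probe sets. Changes of 1.5-fold can therefore be missed. Other steps used Python 3.11.15, pandas 2.3.3, numpy 2.4.6 and matplotlib 3.10.9.

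Symbols came from the platform annotation, in which 34945 probe sets had 1 symbol, 932 several and 9160 none. Probe sets with several symbols were given to no gene. The littermates are stated in the design of the study. Deviations from the genotype means correlated at 0.0429, 0.0095 and −0.0124 between the mice of pairs 1, 2 and 3, so the pairing rests on that statement.

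All probe sets of the 9 genes were named, and the rule for each other list was to name the genes past the threshold, at most 4. Further genes of the lists were named after their values were seen, as stated beside them. As most alike, the 5 genes with the highest correlation with H2-Ab1 were named. The members and lists were chosen with earlier results of these data known. The alternatives were signals as deposited, quantile normalization, a floor of 0.01, a pseudocount of 0.25, no minimum or a minimum of 1, no block, no trend, no _x_at or _s_at probe sets, and leaving out each pair.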

Additional observations from a re-analysis of the deposited data

How the results depend on the processing

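The number of arrays, 3 mice per genotype, limits all of these results. For single class II probe sets, none of which was called in the main fit, 170 of 171 alternative results stayed uncalled and 1 passed. There was no call to reverse, so these counts do not measure how stable a call would be. With no limit on dim probe sets, and with no intensity trend, 0 probe sets of the whole array passed. Leaving out 1 pair at a time gave 0 to 1 class II probe sets lower after adjustment, 1 without pair 3, and 0 to 1 past 1.5-fold in all remaining pairs, again 1 without pair 3. The estimates of 3 uncalled probe sets changed sign in some setting. Without the replicate block, 0 class II probe sets were lower and the adjusted p of Cd74 from limma was 0.235. The count of class II probe sets at an unadjusted p under 0.05 from limma was 4 in the main fit. It was 2 with signals as deposited, 2 with quantile normalization, 2 with no intensity trend and 3 with no block. Leaving out 1 pair at a time gave 3 to 5.

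Over all probe sets, 279 were lower and 123 higher. With no limit on dim probe sets 0 were lower and 0 higher, and with no intensity trend 0 and 0, though 4551 and 3089 had an unadjusted p under 0.05. Leaving out 1 pair at a time gave 288 to 469 lower and 123 to 295 higher. Of the genes of the wider lists, 1 was lower. This became 0 with signals as deposited, 0 with no limit on dim probe sets and 0 with no intensity trend, and 2 without any 1 pair (Marco, Rfxank and Lgmn joined Clec4f without pairs 1, 2 and 3, in that order). The cause of these changes was not tested. Using signals as deposited or quantile normalization shifted the median over all probe sets by 0.04 to 0.05 on the log2 scale.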

Other observations

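Both probe sets that list H2-DMb1 also list its neighbour H2-DMb2, so their values cannot be assigned to either gene. One (1418638_at) read 0.696, 0.0973 and 1.11 in KO1, KO2 and KO3, against 0.997, 1.599 and 0.954 in WT1, WT2 and WT3, with a log2 ratio of −1.43 and an adjusted p of 0.425 from limma. The other (1449580_s_at) read 1.56, 1.06 and 0.929 in KRAP-/- liver and 1.15, 1.56 and 1.28 in wild-type liver, with a log2 ratio of −0.19 and an adjusted p of 0.825. The groups overlapped on both, and WT2 was the highest on the first and KO1 on the second.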
